A study of Mus musculus with 8 samples.

Results

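Cartilage, tendon and matrifibrocyte genes were followed through cardiac fibroblasts of the healing mouse infarct, as the 10 genes Cnmd, Tnmd, Scx, Sox9, Cilp, Cilp2, Comp, Chad, Acan and Angptl7 of 54532 in the deposited table. The genes were picked by name for what they are known to do, except that Cnmd was also noticed in these data, so its difference between the groups is a description here and carries no test. Cells carrying PDGFRα, a receptor by which fibroblasts are recognised, were sorted from infarcts 7 days after occlusion, and their poly(A) RNA was sequenced with no time in culture. The 8 libraries form 2 groups of 4: FTbR2KO (libraries 1 to 4), in which fibroblasts are meant to lack the type 2 receptor for TGF-β, and TbR2fl/fl (libraries 5 to 8), the controls with the floxed gene. Mice of both groups had received tamoxifen, which induces the deletion. The promoter that drives the recombinase, the age and the sex of the mice are not given in the sources used here, nor whether the libraries stem from different animals. The p-values therefore refer to the spread of these libraries alone, part of which may be technical, although sex transcripts, given below, differ between libraries within each group.

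Cartilage and tendon are built by related programs. Sox9 is the transcription factor that sets up cartilage and drives the genes of its matrix, such as aggrecan, whereas scleraxis, the product of Scx, does so for tendon, where tenomodulin marks the mature cells. In the heart, fibroblasts that persist in a mature scar have been called matrifibrocytes and are known for matrix genes shared with cartilage and tendon, among them Comp, Chad and Cilp2. TGF-β is a known inducer of Scx, Comp and Cilp, and the Cilp protein in turn binds TGF-β.

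Cnmd and Tnmd encode the related membrane proteins chondromodulin and tenomodulin, both known to hold back blood vessel growth. They are shown side by side because Cnmd stood far from its controls in FTbR2KO 1 to 3 and Tnmd did not. The sequences are the 250 bases before the transcription start from RefSeq (GRCm38.p6), at chr14:79662184-79662433 on the minus strand for Cnmd and chrX:133850758-133851007 on the plus strand for Tnmd. The deposited span of Tnmd starts at 133850980, inside its window, so positions here are relative to the RefSeq start only. Capitals mark CANNTG, the E-box that Scx and other basic helix-loop-helix factors bind.
Cnmd: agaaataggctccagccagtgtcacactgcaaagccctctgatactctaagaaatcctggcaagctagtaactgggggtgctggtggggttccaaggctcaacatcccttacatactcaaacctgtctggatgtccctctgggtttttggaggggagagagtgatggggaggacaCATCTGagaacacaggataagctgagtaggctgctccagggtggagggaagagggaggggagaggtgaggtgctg
Tnmd: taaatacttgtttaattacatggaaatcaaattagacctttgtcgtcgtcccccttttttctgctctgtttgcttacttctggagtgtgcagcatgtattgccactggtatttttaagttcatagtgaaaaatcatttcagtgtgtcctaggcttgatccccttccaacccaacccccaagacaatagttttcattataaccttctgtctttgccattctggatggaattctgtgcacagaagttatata
The E-box letters occur 1 time in the Cnmd window, 75 bases before the start, and 0 times in the Tnmd window. A window was found for 7 of the 10 genes, and 6 of these 7 hold CANNTG, against 66.2% of all 32851 windows of that length. ACAAT, the core of the SOX motif, was in 3 of the 7 on either strand (27.7% of all windows), Tnmd among them, and CAGAC, a letter run that Smads bind, in 3 of the 7 (42.2% of all windows), Cnmd among them. These are letter matches in 1 short window per gene. Cnmd and Tnmd were paired by the contrast that brought Cnmd to notice, so nothing is read from how their windows differ.

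Values are the authors' FPKM, which divide a gene's fragments by its length and by depth, so levels can be compared between genes. Depth, recovered from the FPKM, ranged from 16.1 to 22.9 M reads for FTbR2KO and from 21.2 to 28.7 M for the controls. The targeted gene went against its label: Tgfbr2 measured 58.2 ± 1.30 FPKM in the libraries labelled FTbR2KO against 45.5 ± 3.86 for the controls (SD, n = 4 each; limma adjusted p = 0.571). The groups did not overlap for Tgfbr2 (56.9 to 60.0 against 40.3 to 49.6 FPKM), as for 2.52% of all tested genes in this direction. The exact permutation p was 0.0286, the smallest possible with 4 libraries per group. A value summed over the gene may miss the loss of single exons. The cause of the higher value was not tested, so directions below follow the labels only. Pdgfra, the gene of the sorting marker, measured 45.5 to 85.6 FPKM over the 8 libraries. FTbR2KO 4 and TbR2fl/fl 8 differed from the rest in sex transcripts, with Xist at 0.0561 and 0.0215 FPKM against 30.7 to 49.7 in the 6 others, and Ddx3y, a Y-linked gene, at 15.6 and 14.2 FPKM against at most 0.0470.

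All 10 genes passed the filter of at least 1 FPKM in at least 4 libraries. Their levels spread widely. Cilp, with a mean of 480.0 FPKM over the 8 libraries, and Comp, with 208.2, lay at the 99.5th and 98.5th percentile of the 11667 tested genes. Cilp was above Comp, and Comp above Sox9 (36.5 FPKM), in 8 of 8 libraries with no overlap of their ranges. Below them came Angptl7 (22.9), Scx (9.89), Acan (8.50), Cnmd (5.63), Chad (4.15), Tnmd (1.94) and Cilp2 (1.91). Neighbours in this lower part of the order had overlapping ranges, although Angptl7 lay above Scx and Chad above Tnmd in 8 of 8 libraries. Scx and Acan changed places between libraries (Scx higher in 4 of 8), as did Tnmd and Cilp2 (Tnmd higher in 5 of 8).

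**Figure D1:**
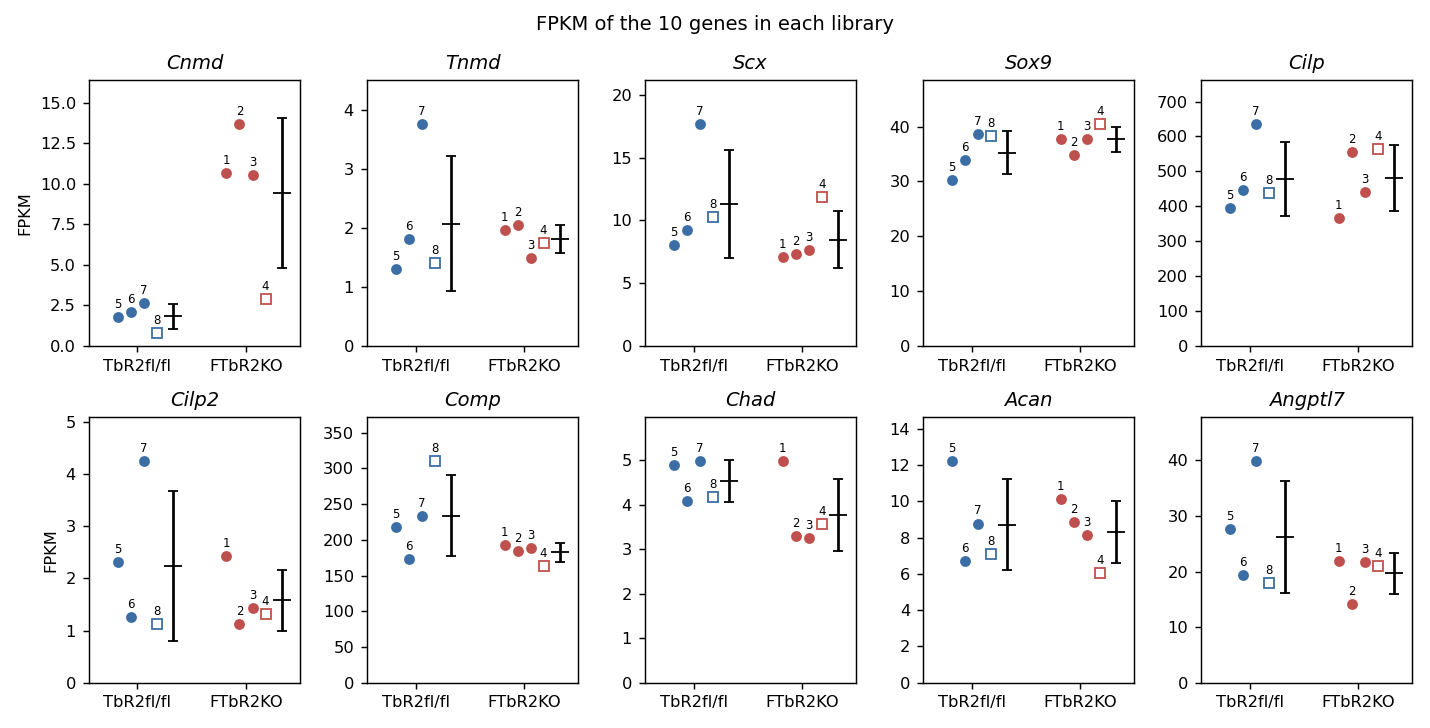
FPKM of each gene (y axis, linear, from 0) in the TbR2fl/fl and FTbR2KO libraries (x axis); points carry the library number, open squares are the 2 libraries with almost no Xist, and bars give the mean ± SD of 4 libraries. The Cnmd points of FTbR2KO 1 to 3 lie between 10.5 and 13.7 FPKM, above every control, and TbR2fl/fl 7 is the highest library for 6 of the 10 genes.

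Between the groups, 0 of the 9 genes other than Cnmd passed the threshold of a limma adjusted p of 0.05, where 0.0171% of all 11667 tested genes did, 2 in all. Of these 9, 2 lay above 0 and 7 below, with a median log2 fold change of -0.22, beside a median of -0.0045 over all tested genes. After conversion to TPM, 7 of the 9 lay below the median of all tested genes, which that scaling moves to 0.15, and 5 lay below 0. Without TbR2fl/fl 7 the count below 0 was 5 of 9, with a median of -0.030. Leaving out any other single library left 7 or 8 of the 9 below 0, with medians from -0.28 to -0.17. At an unadjusted p under 0.05 there were also 0 of the 9 (8.61% of all tested genes), and limma-voom on the recovered reads called 0. The groups overlapped for each of the 9, where 4.41% of all tested genes were without overlap in either direction. In these bulk libraries, fewer cells that express a gene and less RNA per cell cannot be told apart.

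Cnmd, whose product chondromodulin is a glycoprotein of cartilage also known from heart valves, measured 10.7, 13.7, 10.5 and 2.87 FPKM in FTbR2KO 1 to 4 and 1.76, 2.07, 2.65 and 0.782 FPKM in TbR2fl/fl 5 to 8. FTbR2KO 1 to 3 were high, FTbR2KO 4 lay just above the highest control, and the groups did not overlap. Groups without overlap were seen for 2.52% of tested genes in this direction, from which nothing is read here because this contrast brought Cnmd to notice. The group means were 9.44 ± 4.61 and 1.82 ± 0.783 FPKM (SD, n = 4 each), a ratio of 5.20, and the values rested on 1284 reads for FTbR2KO against 344 for the controls, with 41 reads in the lowest library. The log2 fold change was 1.78, in the direction the labels give. The gene spans 79637690 to 79662170 on the minus strand of chromosome 14 and overlaps no other gene of the table.

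In each group the lowest Cnmd value was that of the library with almost no Xist. Among the 6 libraries with Xist the means were 11.6 ± 1.78 against 2.16 ± 0.454 FPKM (SD, n = 3 each), a ratio of 5.38. The remaining pair, FTbR2KO 4 and TbR2fl/fl 8, gave a ratio of 3.68 from 1 library each. The summed markers of other cells known to express Cnmd or to lie near fibroblasts overlapped between the groups. The 6 chondrocyte-defining genes, 5 of them not at 0, summed to between 2.00 and 3.61 FPKM for FTbR2KO and between 2.88 and 5.41 for the controls. The largest part in every library was Col2a1, the type II collagen of cartilage (1.85 ± 0.702 against 2.73 ± 1.15 FPKM, n = 4 each). By mean level Ucma came next (0.417 ± 0.230 against 0.574 ± 0.460 FPKM). Matn1, a matrix protein of cartilage, had 0 reads in all 8 libraries, where 3 reads in a library would be 0.0510 to 0.0864 FPKM. The 7 valve genes summed to 18.5 to 27.0 against 17.5 to 39.5 FPKM. Most of this came from Cytl1 (13.7 ± 4.16 against 14.7 ± 7.10 FPKM) and Nfatc1 (7.19 ± 0.897 against 7.25 ± 1.87 FPKM). Wnt9b was at 0 in 7 of 8 libraries and Hapln1 at 0.0600 to 0.220 FPKM. The 8 epicardial and mesothelial genes summed to 4.50 to 39.5 against 0.795 to 25.6 FPKM. All 7 epicardial and mesothelial genes that could be tested lay above 0, in the direction of Cnmd, where 5694 of all 11667 tested genes did. Their median log2 fold change was 0.40 (SE 0.33 to 0.60 per gene) against -0.0045 over all tested genes. The limma threshold was passed by 0 of them. As markers of the same cells they are not independent of each other. By library the 8 genes summed to 39.5, 13.2, 26.9 and 4.50 FPKM in FTbR2KO 1 to 4. In TbR2fl/fl 5 to 8 the sums were 25.6, 11.3, 0.795 and 15.8 FPKM. Of the 7 mural genes, 6 lay above 0 (median 0.11). The part of any of these cells in the Cnmd values was not tested.

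Tnmd, the tendon counterpart of Cnmd on the X chromosome (133850980 to 133865577, plus strand), measured 1.96, 2.04, 1.496 and 1.75 FPKM in FTbR2KO 1 to 4 and 1.31, 1.80, 3.76 and 1.40 in TbR2fl/fl 5 to 8. TbR2fl/fl 7 stood above all others, and the other 7 libraries overlapped. On the log2 scale the difference was -0.065 (SE 0.21; interval at 95% confidence, -0.54 to 0.41; limma adjusted p = 0.945). Tnmd rested on 40 to 104 reads per library. Without TbR2fl/fl 7 the difference was 0.17 and its SE 0.12, and without TbR2fl/fl 5 the difference was -0.18.

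Among the transcription factors, Scx, which specifies tendon, measured 7.06, 7.31, 7.61 and 11.9 FPKM in FTbR2KO 1 to 4 and 8.06, 9.24, 17.7 and 10.3 in the controls 5 to 8. FTbR2KO 1 to 3 lay below all 4 controls, and FTbR2KO 4 lay above all but TbR2fl/fl 7. Its log2 fold change was -0.35 (SE 0.23, interval -0.87 to 0.17, limma adjusted p = 0.682). With 1 library left out it ran from -0.51 (without FTbR2KO 4) to -0.13 (without TbR2fl/fl 7). Scx lies on chromosome 15 from 76457452 to 76459458 (plus strand), inside the span of Bop1 on the other strand, with 0 exon bases in common. Bop1, a gene of ribosome assembly, measured 8.75 ± 1.82 against 9.98 ± 1.92 FPKM (n = 4 each). The library kit is not stated to mark strand, so intronic reads of a host gene cannot be told apart from those of the gene inside it.

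Sox9, the cartilage regulator (chromosome 11, 112782224 to 112787760, plus strand), had the lowest coefficient of variation of the 10 genes among the libraries labelled FTbR2KO, 5.99%; among the controls it was 11.3%, where Chad had 10.3%. It measured 37.8, 34.9, 37.7 and 40.4 FPKM in FTbR2KO 1 to 4 and 30.3, 33.9, 38.6 and 38.3 in TbR2fl/fl 5 to 8. The groups overlapped in part: TbR2fl/fl 5 and 6 lay below every library labelled FTbR2KO, and FTbR2KO 4 lay above every control. The log2 fold change was 0.099 (SE 0.099, interval -0.13 to 0.32, limma adjusted p = 0.785). Acan, the aggrecan gene that Sox9 is known to drive, measured 10.1, 8.88, 8.14 and 6.07 FPKM against 12.2, 6.72, 8.77 and 7.09. Its log2 fold change was -0.045 (SE 0.19, interval -0.47 to 0.38, limma adjusted p = 0.959) and its sign turned without FTbR2KO 4 (0.080) or TbR2fl/fl 5 (0.11). Across the 8 libraries Acan and Sox9 ran in opposite directions (Pearson's r of the deviations from group means, on log2(FPKM + 1), -0.63), a description over libraries that share depth and composition.

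The matrix genes of the scar followed. Cilp, which encodes the cartilage intermediate layer protein (chromosome 9, 65265180 to 65280605, plus strand), measured 367.4, 554, 440.0 and 564 FPKM in FTbR2KO 1 to 4 and 396, 446, 635 and 438 in TbR2fl/fl 5 to 8. Both groups covered nearly the same range, and the log2 fold change was 0.011 (SE 0.19, interval -0.42 to 0.44, limma adjusted p = 0.992). Its paralogue Cilp2 measured 2.43, 1.13, 1.43 and 1.32 FPKM against 2.32, 1.25, 4.25 and 1.13. The mean of Cilp2 was 1.58 ± 0.581 against 2.24 ± 1.44 FPKM, a log2 fold change of -0.26 (SE 0.28, interval -0.89 to 0.38, limma adjusted p = 0.805). TbR2fl/fl 7 was again the highest: the 3 other controls averaged 1.57 ± 0.654 FPKM, and without it the log2 fold change was 0.0095 (SE 0.21). Without TbR2fl/fl 8 the log2 fold change was -0.42.

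Comp, a thrombospondin-family protein that links collagen fibrils (chromosome 8, 70373558 to 70382066, plus strand), measured 192, 185, 189 and 163 FPKM in FTbR2KO 1 to 4 and 218, 174, 234 and 310.0 in TbR2fl/fl 5 to 8. The libraries labelled FTbR2KO were tightly grouped and 3 of the 4 controls lay above all of them, but TbR2fl/fl 6 lay among the libraries labelled FTbR2KO. The log2 fold change was -0.33 (SE 0.17, interval -0.70 to 0.046, limma adjusted p = 0.602; exact two-sided permutation p = 0.114, where 0.0286 is the smallest possible). Among the 6 libraries with Xist the ratio of means was 0.905, and the pair without it gave 0.527. With 1 library left out the log2 fold change ran from -0.46 (without TbR2fl/fl 6) to -0.18 (without TbR2fl/fl 8). Chad, whose product chondroadherin binds collagen and cells, measured 4.97, 3.29, 3.25 and 3.57 FPKM against 4.88, 4.09, 4.97 and 4.16. FTbR2KO 2 to 4 lay below every control and FTbR2KO 1 level with the highest of them. The log2 fold change was -0.22 (SE 0.12, interval -0.49 to 0.046, limma adjusted p = 0.616). Chad (chromosome 11, 94565047 to 94569127, plus strand) lies inside Acsf2 on the other strand with 0 exon bases in common, and Acsf2 measured 7.58 ± 1.08 against 7.26 ± 1.18 FPKM.

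Angptl7, a secreted angiopoietin-like protein, measured 21.9, 14.2, 21.7 and 20.9 FPKM in FTbR2KO 1 to 4 and 27.6, 19.4, 39.8 and 17.96 in TbR2fl/fl 5 to 8. FTbR2KO 2 was lowest, TbR2fl/fl 7 highest, and the groups overlapped. The log2 fold change was -0.35 (SE 0.24, interval -0.89 to 0.20, limma adjusted p = 0.702). With 1 library left out it ran from -0.50 (without TbR2fl/fl 8) to -0.13 (without TbR2fl/fl 7). The gene (chromosome 4, 148495183 to 148500460, minus strand) lies inside Mtor on the other strand with 0 exon bases in common, and Mtor measured 3.68 ± 0.201 against 3.12 ± 0.283 FPKM.

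**Figure D2:**
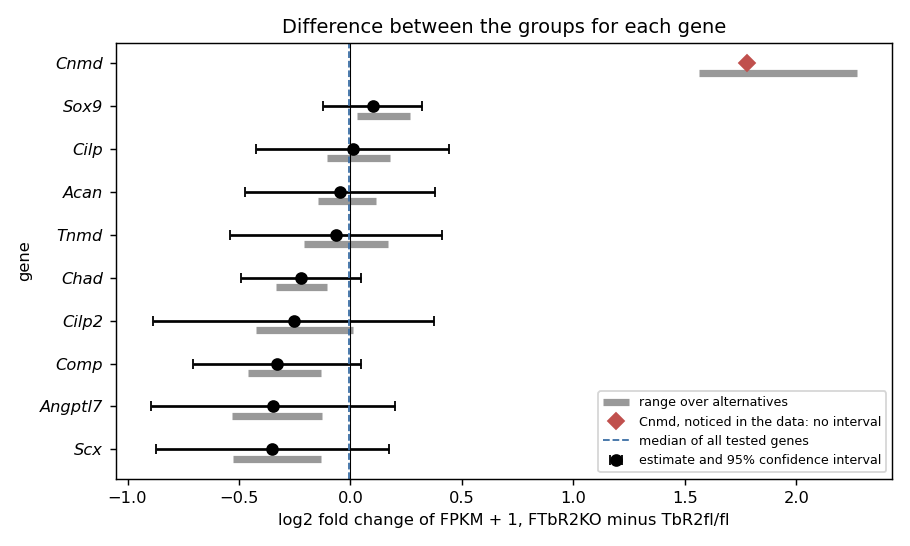
Log2 fold change of FPKM + 1 (x axis, FTbR2KO minus TbR2fl/fl) for each gene (y axis); black points are estimates with 95% confidence intervals, the diamond is Cnmd without an interval because it was noticed in the data, grey bars are the range over the alternative settings and the dashed line is the median of all tested genes. The intervals of all 9 genes other than Cnmd include 0, and Cnmd lies at 1.78.

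Many of these genes were highest in the same control. TbR2fl/fl 7 was the highest of all 8 libraries for 6 of the 10 genes (Tnmd, Scx, Cilp, Cilp2, Chad and Angptl7) and the highest control for 8. How often it was the highest among all tested genes was not counted. A shift of the whole library therefore cannot be told apart here from a trait of these genes. Against the mean of the other 3 controls it measured 2.71 times as much Cilp2, 2.50 times as much Tnmd, 1.92 times as much Scx, 1.84 times as much Angptl7 and 1.49 times as much Cilp. The ratio was 1.73 for Cnmd, 1.14 for Chad, 1.13 for Sox9, 1.01 for Acan and 1.00 for Comp. In the same library the 8 epicardial and mesothelial markers summed to 0.795 FPKM, against 11.3 to 25.6 in the other controls, and the 10 fibroblast markers to 18762, against 14004 to 15930. Among those markers Gsn, the gelsolin gene, stood at 5361 FPKM against 1492 to 2261 in the other controls, whereas the collagen genes Col1a1 (4682) and Col1a2 (1834) were lowest of the 4 controls in TbR2fl/fl 7. The part of these in the values of TbR2fl/fl 7 was not tested.

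**Figure D3:**
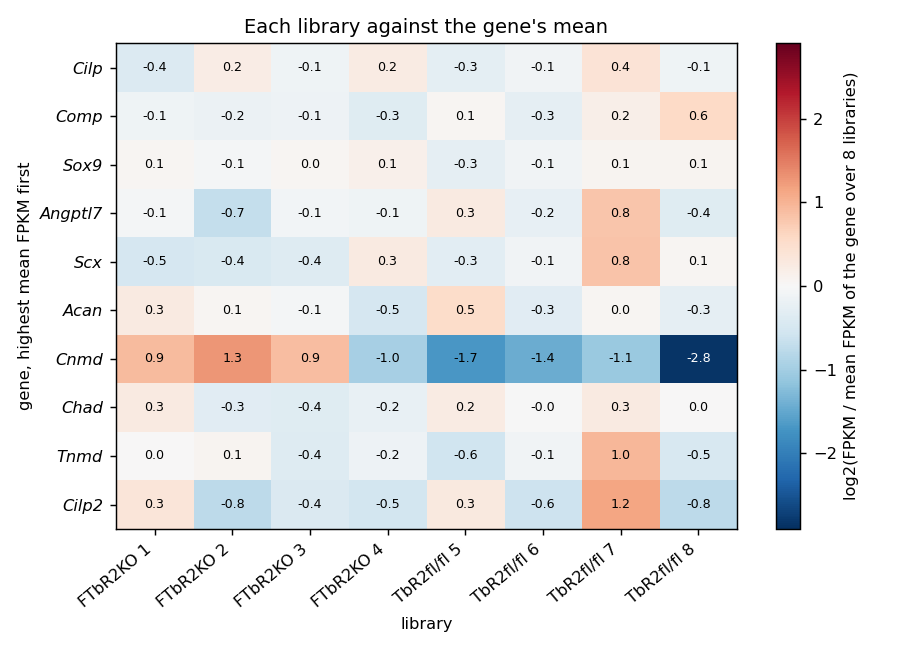
Colour and number give log2 of FPKM over the gene's mean of 8 libraries, for each gene (rows, highest mean first) and library (columns). TbR2fl/fl 7 shows 1.15 for Cilp2, 0.95 for Tnmd and 0.84 for Scx, while Cnmd is above its mean only in FTbR2KO 1 to 3.

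Within the groups, Cilp2 and Angptl7 varied most alike (r of the deviations from group means 0.91 over 8 libraries), then Scx with Cilp (0.82), Scx with Sox9 (0.77) and Cilp2 with Chad (0.76). Cnmd was not close to any of them, the highest value being 0.58, with Acan. The pairs named were picked as the highest of all pairs among these genes, so nothing is read from the size of their r. TbR2fl/fl 7 was the highest of the 8 libraries for Cilp2, Angptl7, Scx, Cilp and Chad, though not for Sox9. The part of that library in these r was not tested. All tested genes were also compared over the 8 libraries with the group means left in. The patterns most like that of Cnmd were those of Thap2 (Pearson's r = 0.98), Suz12 (0.98) and Zfp638 (0.97). These r carry the contrast that brought Cnmd to notice. Here and for the genes below they are the highest among 11667 genes over 8 libraries, so nothing is read from their size. Thap2 measured 3.60 ± 0.372 against 2.61 ± 0.308 FPKM and Suz12 5.71 ± 0.618 against 4.76 ± 0.284, so their differences were far smaller than that of Cnmd. For Cilp the nearest gene was Col6a2, a type VI collagen chain (r = 0.96), followed by Dennd2a (0.95) and a pseudogene. For Sox9 they were Pfkp, Ankrd49 and Exosc1 (0.91 to 0.95), and for Comp a pseudogene, Pecr and Ifitm10 (0.87 to 0.92).

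The lists around these genes, taken without the 10 genes themselves, held 0 genes past the limma threshold in either direction. Of 19 other cartilage matrix genes, 10 could be tested, 4 above 0 and 6 below (median log2 fold change -0.12). The most abundant were Ogn, the proteoglycan osteoglycin (459 ± 64.8 for FTbR2KO against 415.1 ± 92.1 FPKM for TbR2fl/fl; SD, n = 4 each, here and for the genes that follow), and Prelp, which anchors matrix to basement membranes (177 ± 17.1 against 173 ± 31.6). Cartilage regulators other than Sox9 gave 4 above and 3 below of 7 tested (median 0.064). Pth1r, the parathyroid hormone receptor of growth cartilage, measured 17.0 ± 0.677 FPKM for FTbR2KO and 20.7 ± 1.97 for TbR2fl/fl without overlap (a log2 difference of -0.27, SE 0.084, limma adjusted p = 0.571), where 1.89% of all tested genes were without overlap in that direction. Trps1, a repressor in cartilage growth, measured 6.39 ± 0.400 against 5.17 ± 0.834 FPKM, and Zfp219, a partner of Sox9, 11.4 ± 1.31 against 12.5 ± 1.13.

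Of 13 other tendon genes 10 were tested, 3 above 0 and 7 below (median -0.048). The most abundant were Egr1, an early growth response factor of tendon and many other cells (675 ± 75.3 against 592 ± 130 FPKM), Col14a1 (281 ± 22.3 against 300.4 ± 37.1), Htra3, a secreted protease (249 ± 56.3 against 283 ± 87.1), and Thbs4, a thrombospondin of tendon (209.6 ± 78.3 against 210.1 ± 74.8). All 6 other late scar genes were tested, 1 above 0 and 5 below (median -0.13), among them Sfrp2, a secreted Wnt modulator (455 ± 128 against 526 ± 96.1 FPKM), and Clec3b, the tetranectin gene (265 ± 83.2 against 318 ± 169.5). Some genes stand in more than 1 list, so the counts of the lists are not independent. Thbs4, in the tendon and late scar lists, counts as below 0 in both at -0.0075 (SE 0.34). Bone genes were mostly not expressed, with 8 of 10 under 1 FPKM in every library. Spp1, the osteopontin gene, measured 23.5 ± 8.89 against 25.9 ± 13.3 FPKM, and Alpl, the phosphatase of mineralizing tissue, 5.33 ± 2.27 against 2.35 ± 1.05 (log2 fold change 0.89, SE 0.28, limma adjusted p = 0.571; exact permutation p = 0.0571).

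**Figure D4:**
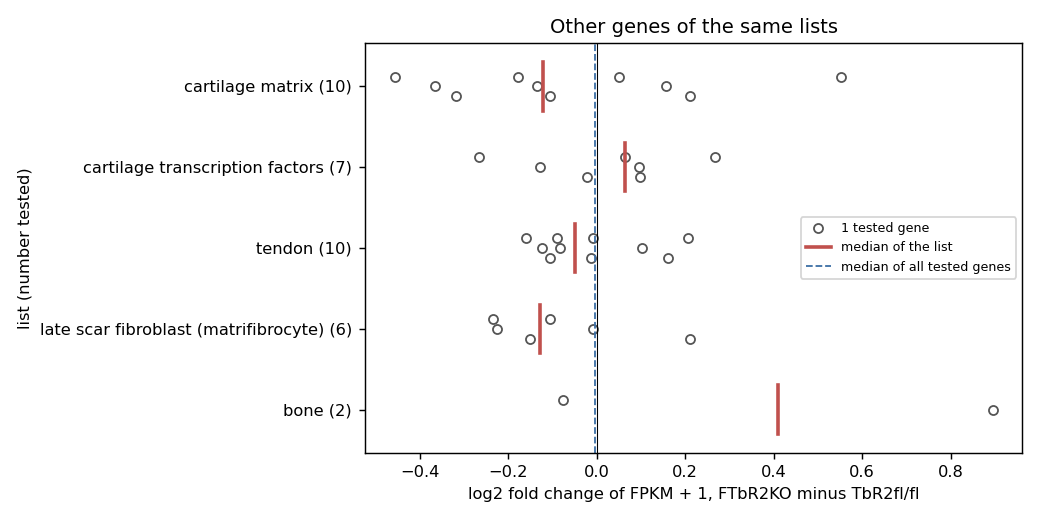
Log2 fold change of FPKM + 1 (x axis, FTbR2KO minus TbR2fl/fl) of each tested gene in 5 lists (y axis), without the 10 genes described above; circles are genes, red bars list medians and the dashed line the median of all tested genes. The list medians run from -0.13 for late scar genes to 0.41 for bone genes, the latter from 2 genes.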

How the data were processed

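RNA sequencing of 8 libraries (4 FTbR2KO, 4 TbR2fl/fl) was used as the authors' deposited gene table of FPKM. Per the submitters' processing notes, the tools included HTSeq 0.6.1, Cufflinks 2.1.1, TopHat2 2.0 and CASAVA, with the builds mm10 and GRCm38.p6; their roles and the strand setting are not given in the sources used here. Gene names, spans and lengths, an unscored other column, are those of the deposited table, per the file headers; spans and lengths of the 10 genes were the same in GENCODE M21 (GRCm38). FPKM times length was a whole multiple of 1 step per library for 100% of nonzero values (within 0.01), which gave the reads.

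Genes with at least 1 FPKM in at least 4 libraries were compared on log2(FPKM + 1), a scale that shrinks the differences of genes near 0, with limma 3.58.1 in R 4.3.3 (trended variance, no covariate, Benjamini-Hochberg over all 11667 genes, two-sided). The test was tried on simulated reads in which every gene had the same spread beyond counting noise. That trial does not carry over to genes that vary more between libraries. Single values were compared by an exact permutation test (scipy 1.17.1). The genes and lists were chosen with earlier results of these data known. Named are the 10 genes, Tgfbr2, genes overlapping them, up to 4 genes per list by mean FPKM and up to 3 genes most like Cnmd, Comp, Cilp or Sox9; Col2a1, Hapln1, Wnt9b and Matn1 stand for their lists, the last 3, like the sex genes Xist and Ddx3y, named after their values were seen. Pseudogenes are not named. Alternatives were another pseudocount, filters, scalings, voom, array weights, an Xist covariate and left-out libraries.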

Additional observations from a re-analysis of the deposited data

Results flagged for a closer look

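In the group of 4 libraries labelled FTbR2KO, the Scx level of FTbR2KO 4, 11.9 FPKM, stood apart from the other 3 (7.06 to 7.61), with a gap of 0.885 of the group's range by Dixon's test. The Angptl7 level of FTbR2KO 2, 14.2 FPKM, stood apart below the other 3 (20.9 to 21.9), with a gap of 0.873. Both gaps exceeded the 95% critical value for 4 samples. In all 20 groups were checked, and chance flags about 1 in 20.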

How the results depend on the processing

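None of the 9 genes other than Cnmd passed the threshold under any alternative that tested it, 18 for 6 of them and 17 for Tnmd, Cilp2 and Chad, which the filter of at least 5 FPKM removed. Cnmd ranged from 1.56 to 2.27 on the log2 scale, its direction being fixed by its choice. The direction held throughout for Scx (-0.53 to -0.13), Sox9 (0.028 to 0.27), Comp (-0.46 to -0.13), Chad (-0.34 to -0.10) and Angptl7 (-0.53 to -0.13), while each of these 5 values moved by over 1.5 times under at least 1 alternative. Conversion to TPM moved the median of all tested genes from -0.0045 to 0.15 and put Tnmd at 0.083 and Acan at 0.11, which is -0.069 and -0.039 relative to that median. Acan was also above 0 with array weights (0.11), without FTbR2KO 1 and TbR2fl/fl 5 (0.022) and without FTbR2KO 4 and TbR2fl/fl 8 (0.0042), the pair in which Xist is almost absent, chosen after seeing the data; without that pair Cilp was at -0.11. Leaving out 1 library at a time gave -0.073 to 0.15 for Cilp, -0.14 to 0.11 for Acan, -0.18 to 0.17 for Tnmd and -0.42 to 0.0095 for Cilp2; the highest values of Tnmd and Cilp2 came without TbR2fl/fl 7. The number of all genes past the threshold was 1 with a filter of at least 5 FPKM, which tests fewer genes, 4 without FTbR2KO 4 and TbR2fl/fl 8, and 2 to 8 when 1 library was left out, the 8 without FTbR2KO 4; where not stated, the cause was not tested. No paired analysis was possible because the groups share no sample number. With 4 libraries per group the intervals were wide, and a true difference anywhere within them is compatible with these data. Reads per library were 40 to 104 for Tnmd and 85 to 375 for Cilp2; without TbR2fl/fl 7 the SE went from 0.21 to 0.12 and from 0.28 to 0.21.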
